A study of Homo sapiens with 6 samples.

Results

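The untreated chromatin landscape of METTL14 in HepG2 was described from every nuclear island of the deposited untreated table, 38695 of its 38696 islands, the mitochondrial island being set aside. HepG2 is a human hepatocellular carcinoma line, an island is a run of neighbouring 200-base windows joined by the peak caller SICER, and each island carries the reads of the immunoprecipitation (IP) and of input chromatin. Of the 6 libraries of the study, the 4 untreated ones were used, 2 anti-HA IP libraries and 2 input libraries, pooled by the authors in 1 column each. All of these cells were stably transduced by lentivirus with pLJM1 carrying METTL14 cDNA, with HA at the N-terminus and EGFP at the C-terminus, were selected with puromycin and sorted for high GFP, and received no DRB. The tagged protein was therefore overexpressed beside the endogenous one, and the labels do not say whether the 2 libraries came from separate cultures. Since the replicates cannot be separated in the table, every interval and test below covers counting error in these pooled libraries and not variation between cultures.

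METTL14 is the partner of the catalytic subunit METTL3 in the complex that deposits N6-methyladenosine (m6A) on RNA. It has no catalytic activity of its own and helps to bind the RNA substrate. The complex can methylate RNA while it is still being transcribed, so that chromatin immunoprecipitation of its subunits can recover transcribed genes.

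Fold is IP reads over input reads after the authors' scaling, and 1 means no difference from input. Where a gene lay under several islands, its fold is over their summed reads unless its highest island, the one with most IP reads above scaled input, is named. Genes were named from hg19 positions written to the nearest 1 kb from general knowledge, because no hg19 annotation was at hand. They are therefore labels for islands and not an annotation, and exon, intron and UTR positions were not assigned. RefSeq, which is on another build, agreed on the chromosome and the order along it for 340 of 340 genes and on length for 322. For 302 of them, the offset between the written position and the RefSeq position was shared, within 1.5 kb, with another gene of the same chromosome.

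Sequences that belong to genes under enriched islands are given first. MIR21, MIR22HG and the cluster host MIR17HG lay under islands that passed the exact test described below. Their mature microRNAs, from RefSeq (GRCh38.p14), are printed with the seed, bases 2 to 8, in capitals. Within the cluster, miR-17 and miR-20a shared the seed AAAGUGC, and miR-19a and miR-19b shared GUGCAAA.
hsa-miR-21-5p: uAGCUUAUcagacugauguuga
hsa-miR-22-3p: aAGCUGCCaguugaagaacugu
hsa-miR-17-5p: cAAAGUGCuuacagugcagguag
hsa-miR-20a-5p: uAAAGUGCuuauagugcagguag
hsa-miR-18a-5p: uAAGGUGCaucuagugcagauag
hsa-miR-19a-3p: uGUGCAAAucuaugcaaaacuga
hsa-miR-19b-3p: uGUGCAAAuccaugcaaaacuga
hsa-miR-92a-3p: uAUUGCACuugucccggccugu

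The 100 bases before the gene start (RefSeq, GRCh38.p14, strand of the gene) follow for 7 genes under such islands. The island covered the gene start in 6 of them and not at FOSB. RHOB was chosen after its value was seen. Capitals mark TATAAA within the last 50 bases, and the genes without capitals do not have these letters there. The 4 genes with capitals are all those with TATAAA there among the 25 listed genes under such islands that matched a RefSeq promoter (16%), so most such genes lack it.
RHOB: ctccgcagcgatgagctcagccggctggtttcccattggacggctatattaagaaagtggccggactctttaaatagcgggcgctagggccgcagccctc
JUND: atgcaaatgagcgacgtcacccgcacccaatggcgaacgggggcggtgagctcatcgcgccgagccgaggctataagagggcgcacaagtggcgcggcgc
JUN: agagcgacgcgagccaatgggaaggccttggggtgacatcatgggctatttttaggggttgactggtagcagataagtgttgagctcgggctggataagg
FOSB: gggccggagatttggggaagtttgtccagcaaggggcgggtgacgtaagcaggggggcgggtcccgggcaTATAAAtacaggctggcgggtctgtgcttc
DUSP1: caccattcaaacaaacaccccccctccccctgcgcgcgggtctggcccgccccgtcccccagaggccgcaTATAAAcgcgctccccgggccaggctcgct
CEBPA: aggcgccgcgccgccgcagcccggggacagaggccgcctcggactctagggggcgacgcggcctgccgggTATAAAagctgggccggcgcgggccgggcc
GDF15: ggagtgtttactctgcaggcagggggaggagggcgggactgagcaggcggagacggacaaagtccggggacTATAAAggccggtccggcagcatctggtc

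IP was close to scaled input over most of the landscape. The median island had a fold of 1.08, with quartiles of 1.00 and 1.17, and 5% of islands lay above 1.37. In 9120 islands, 23.6%, the fold was below 1. These values depend on the authors' scaling, which multiplies IP over input by 1.073. Scaled by nuclear island reads, the median was 1.02. The islands covered 253 Mb, had a median width of 4.8 kb, and the median read numbers were 241 in the IP and 240 in the input. In total they carried 14495388 IP reads and 14661480 input reads.

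The authors' threshold, a false discovery rate (FDR) under 1e-04, called 1973 islands (5.10% of those tested), which covered 12.4 Mb and had a median fold of 1.44. That rate treats the scaled input as known without error. An exact two-sided binomial test, which counts the error of the input too, was run on the same islands with Benjamini-Hochberg adjustment over all of them. At an adjusted p under 1e-04 it called 270 islands above input (0.698%) and 5 below (0.0129%). Scaled by the nuclear island reads, the split was 160 above and 31 below, and scaled to a median fold of 1 it was 143 and 70. These scalings shift every log2 fold by -0.09 and -0.11, so that folds above 1.08 stay above 1. At an adjusted p under 0.05, 2000 islands were above input (5.17%) and 32 below (0.0827%). The 270 covered 2.02 Mb and had a median fold of 1.69. Both rules compare the pooled libraries and say nothing about replicates.

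**Figure D1:**
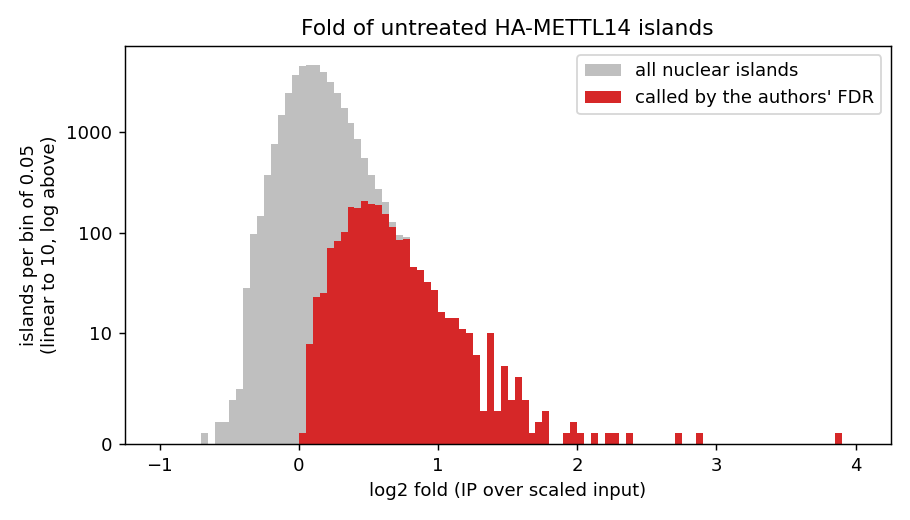
Number of nuclear islands per bin of log2 fold (horizontal axis, IP over scaled input, bins of 0.05), for all 38695 islands in grey and the 1973 called by the authors' FDR in red; the vertical axis is linear up to 10 and logarithmic above. Called islands start just above input and thin out towards high folds, and the point at the far right is the PGK1 island.

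Among the 1973, a small fold was the rule. There were 1052 islands with a fold of 1.2 to 1.5 and 648 with 1.5 to 2, while 102 had 2 to 3 and 25 had 3 or more. Width ran the other way. The 146 called islands under 1.2-fold had a median width of 17.4 kb, and the 25 of 3-fold or more had a median width of 0.8 kb. Of those 25, 24 also passed the binomial test, against 7 of the 146.

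Fold fell off with island width over the whole landscape. The median was 1.22 in the 2494 islands of at most 2 kb, 1.07 in those of 4 to 8 kb and 1.01 in the 309 of over 40 kb. Islands with little input stood higher: below 0.75 times the median input density, the median fold was 1.27 and 22.7% were called, against 1.03 and 3.80% between 1 and 1.5 times the median. Input reads form the denominator of the fold, so these values are a description, and the part that input coverage has in them was not tested.

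**Figure D2:**
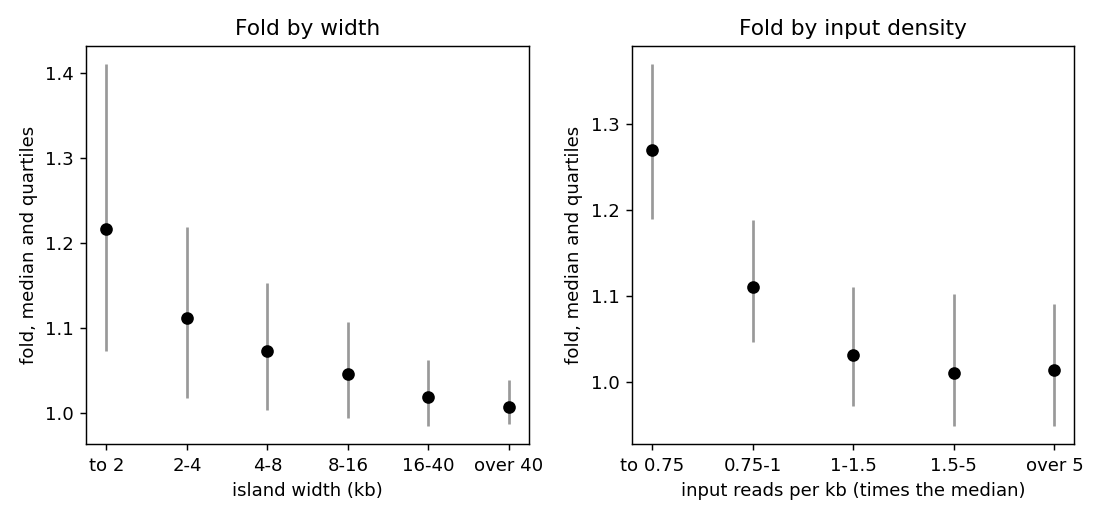
Median fold (points) with quartiles (bars) of nuclear islands by island width in kb (left) and by input reads per kb relative to the median island (right). The median goes from 1.22 to 1.01 from the narrowest to the widest class, and from 1.27 in the class of lowest input density to 1.01 in the class above 5 times the median.

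Islands were spread unevenly over the chromosomes. Chromosomes 2, 6, 14, 16, 17 and 20 together held 23535 islands, 60.8% of the total, and 10099 of these lay on chromosome 2. Extra copies of these chromosomes, or of parts of them, are known in HepG2, and islands are chosen on read number. Copy number and island number cannot be told apart here. The same 6 had the lowest medians: their islands had a median fold of 1.06 with 3.31% called, and those of the other chromosomes 1.11 with 7.88% called.

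Gene-dense chromosome 19 had a median of 1.15, with 14.3% of its 490 islands called by the authors' FDR and 5.10% by the binomial test. Chromosome 22 stood at 1.15 and chromosome 21 at 1.13, while chromosome 20 was lowest at 1.03. Chromosome X had 49 islands with a median of 1.39, and 17 of them (34.7%) were called, beside 5.10% of all islands. Islands that were not called and lay within 10 kb of a called one had a median fold of 1.08, beside 1.07 for those over 1000 kb away.

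**Figure D3:**
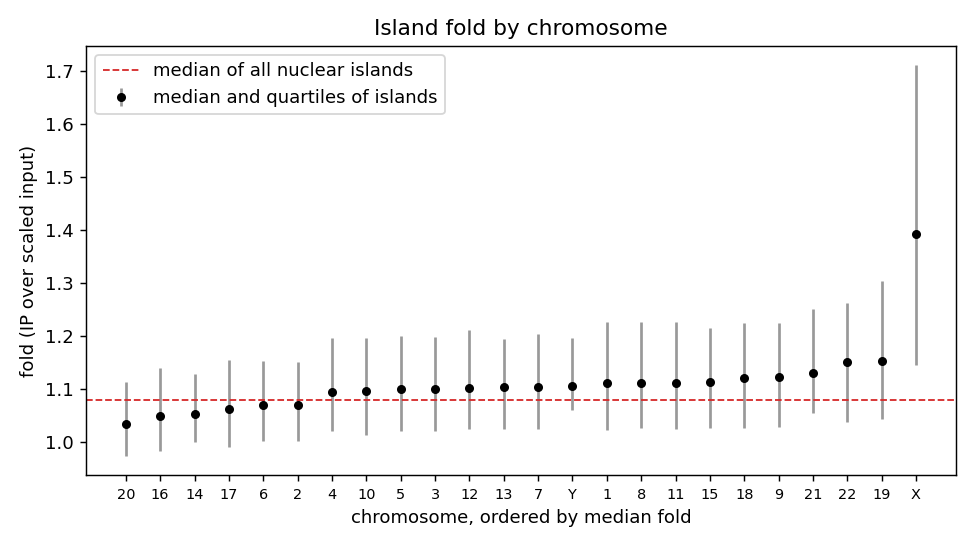
Median fold (points) and quartiles (bars) of the islands of each chromosome, in order of the median; the dashed line is the median of all nuclear islands, 1.08. Chromosomes 20, 16, 14, 17, 6 and 2 are lowest, and X, with 49 islands, is highest at 1.39.

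Among islands with at least 50 input reads, the 4 highest folds were at PGK1 and METTL14, both tied to the construct. PGK1, which encodes the glycolytic enzyme phosphoglycerate kinase, had 4943 IP reads and 365 input reads in chrX:77359201-77361000. The fold was 14.5 (95% interval 13.1 to 16.2), and the input there was 3.88 times the median density. The island was 1.8 kb wide at the gene's start, and as background, pLJM1 carries a human PGK promoter that drives its puromycin resistance gene. METTL14 itself lay under 7 islands, all past the binomial test, with 5130 IP and 1577 input reads in sum and a fold of 3.49 (3.30 to 3.70). The highest was chr4:119626601-119627800 at 6.68 (5.58 to 8.05), with 865 IP and 139 input reads. At both genes, reads from the integrated vector and from the genomic locus cannot be told apart, so neither was read as occupancy of the endogenous gene.

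Among the 15 placed lists, short noncoding RNA genes were the class most often under called islands. They encode the RNA parts of the spliceosome (U1, U2, U4, U5, U6, U11, U12) and the box C/D nucleolar RNAs such as U3 and U8. Of 25 listed members, 18 were placed, and 12 of these lay under a called island by both rules. The median fold of the 17 islands over the list was 1.82, beside 1.08 for all islands. Each rule called 64.7% of these islands, beside 5.10% and 0.698% of all. Lists and members were chosen with earlier results of these data known, so the order of the lists is a description only.

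Across the class, SNORD3B-1, a U3 gene, was highest, with 128 IP reads and 19 input reads, a fold of 7.23 (4.44 to 12.4). SNORD3A, another copy of U3, had 55 and 15 reads and a fold of 3.93 (2.19 to 7.5). The low read numbers make these intervals wide, and U3 copies are near-identical, so that reads may be shared among them. SNORD118, the U8 gene, had 414 and 161 reads and a fold of 2.76 (2.29 to 3.33).

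Spliceosomal genes of the list followed, at folds below those of U3 and U8 and on more reads. Whether reads at these genes are shared with other copies of their families was not tested. RNU2-2P, a U2 gene, had 1271 IP and 518 input reads in chr11:62606001-62610400, a fold of 2.63 (2.38 to 2.92). The island also reached the start of WDR74. RNU11 and RNU1-1 had folds of 2.46 and 2.40, RNU12 had 2.21, and RNU5A-1 had 1.80. RNU4-1 and RNU4-2 shared 1 island at 1.95, and RNU6-1, a polymerase III gene, was lowest of the list's called members at 1.56 (1.35 to 1.80). After these values were seen, RNU5B-1, RNU5D-1, RNU5E-1, RNU5F-1 and RNU4ATAC were added. With them, 17 of 17 placed spliceosomal and nucleolar genes lay under islands past the binomial test, at folds of 1.36 to 7.23. The added genes were chosen with their values known, so that full count is in part fixed by the choice.

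The other 6 members were not called. RN7SK, the RNA that holds the elongation kinase CDK9 inactive, had a fold of 1.19, and the signal recognition particle genes RN7SL1 and RN7SL2 had 1.11 and 1.06. The RNA parts of telomerase (TERC, 1.05), RNase P (RPPH1, 1.02) and RNase MRP (RMRP, 0.97) were near 1.

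Immediate early genes formed the next class. These encode transcription factors and regulators that are transcribed within minutes of a stimulus. Of 28 placed members, 24 lay under an island, 17 under a called one and 10 under one past the binomial test. Their 36 islands had a median fold of 1.25, and 47.2% of them were called, beside 5.10% of all islands.

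The AP-1 factors JUND, FOSB and JUN stood highest, by the island with most excess reads. JUND had 658 IP and 276 input reads and a fold of 2.56 (2.22 to 2.96). JUN had 720 and 397 reads and a fold of 1.95 (1.72 to 2.21), and FOSB had 2.01 (1.62 to 2.48) in its highest island and 1.58 over both of its islands. The intervals of JUN and FOSB overlap, and that of JUND does not overlap the one of JUN.

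KLF6, a zinc finger factor, had 1384 IP and 835 input reads over 16.4 kb, a fold of 1.78 (1.63 to 1.94). CCN1, a secreted matrix protein, stood at 1.65, FOSL1 at 1.56 in its highest island and the MAP kinase phosphatase DUSP1 at 1.51. The growth arrest gene GADD45A had 1.46, IER3 1.36 and KLF10 1.34. Called by the authors' rule alone were FOS (1.27), FOSL2, EGR1, ATF3, IER2, CCN2 and ZFP36. MYC had a fold of 1.06 and was not called, and EGR2, EGR3, KLF4 and BTG2 had no island, so no value can be given for them.

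**Figure D4:**
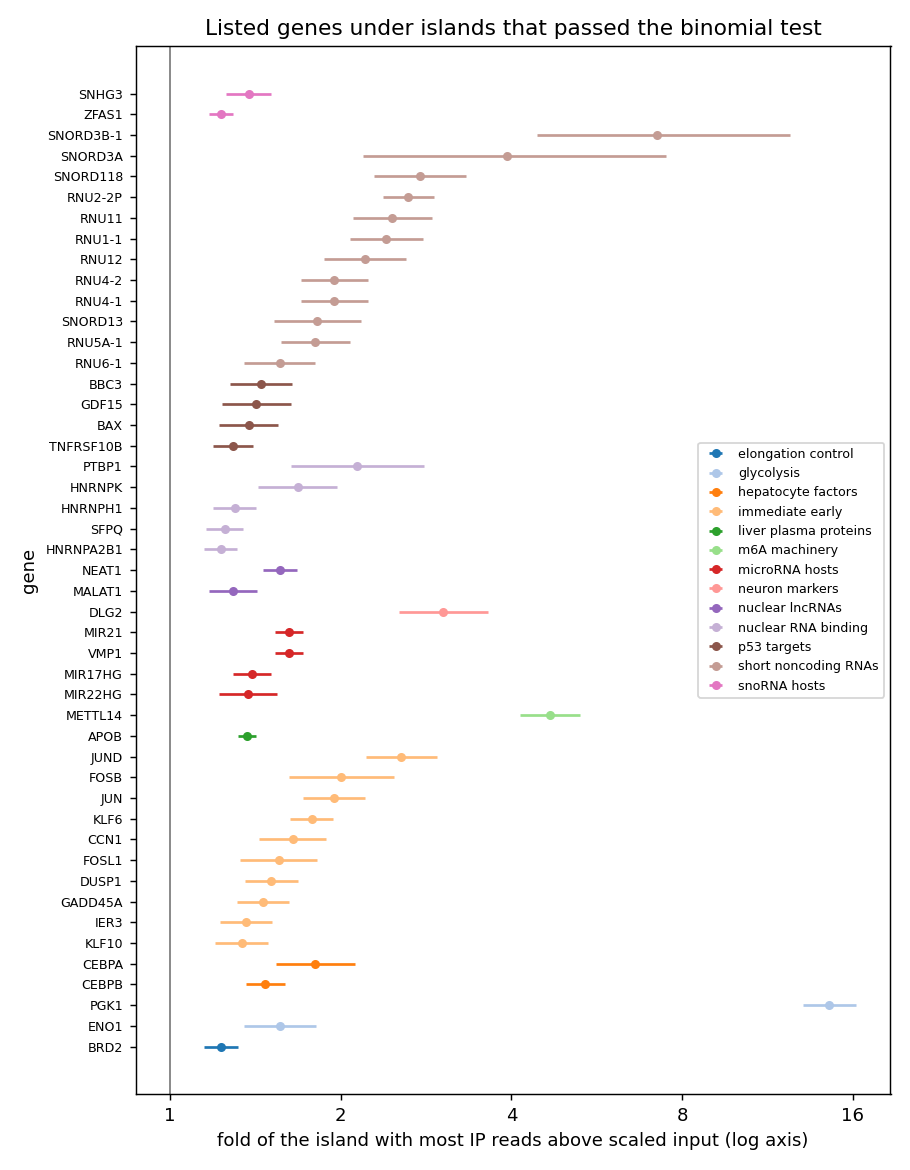
Fold (points, log axis) with 95% counting intervals (bars) of the island with most IP reads above scaled input, for each listed gene under an island past the binomial test, coloured by gene list; the vertical line is a fold of 1. PGK1 is farthest right at 14.5, followed by the U3 gene SNORD3B-1 at 7.23, and most protein-coding genes lie between 1.2 and 2.6.

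In median fold and by the authors' rule, hepatocyte gene lists were close to the landscape as a whole. Of 39 genes of secreted liver plasma proteins, 29 lay under an island, 4 under a called one and 1 under one past the binomial test. The 44 islands over them had a median fold of 1.09, beside 1.08 for all. The authors' rule called 6.82% of these islands, beside 5.10% of all, and the binomial test 2.27%, beside 0.698%. APOB, which encodes the structural protein of low density lipoprotein, was the member past the binomial test, with 6065 IP and 4760 input reads over 59.4 kb and a fold of 1.37 (1.32 to 1.42).

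ALB, the albumin gene, had a fold of 1.05 (0.98 to 1.13), and AFP, the fetal counterpart, had 1.09 (1.01 to 1.16). Both lay under islands. Of 12 blood cell genes, 1 did, LYZ at 1.03. HP (0.92) and FGA (0.96) were below 1. Among 15 hepatocyte transcription factors, 12 lay under an island, and CEBPA and CEBPB were called by both rules. Of the islands of these factors, 6.25% were called by each rule, beside 5.10% and 0.698% of all. CEBPA had 422 and 251 reads and a fold of 1.80 (1.54 to 2.12), and CEBPB had 1506 and 1096 and 1.47 (1.36 to 1.60). HNF4A (0.99), FOXA1 (0.99) and FOXA2 (1.07) were not called. The island of FOXA1 was 210 kb wide around a gene of 5 kb, so its fold is not a value of the gene alone.

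Genes of nuclear long noncoding RNAs and of host transcripts are given next. NEAT1, the scaffold RNA of paraspeckles, had 2031 IP and 1392 input reads over 24.2 kb and a fold of 1.57 (1.46 to 1.68). MALAT1, a nuclear speckle RNA, had 911 and 756 and a fold of 1.29 (1.17 to 1.43). The intervals do not overlap, NEAT1 being above its neighbour on chromosome 11. Of the 9 placed nuclear lncRNA genes, these 2 were called, NORAD (1.18) and TUG1 (1.16) were not, and MEG3, H19, FTX and PVT1 had no island. Each rule called 40% of the list's 5 islands, beside 5.10% and 0.698% of all.

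MIR21, which lies at the 3' end of VMP1, was under chr17:57902601-57927800 with 3184 IP and 2107 input reads and a fold of 1.62 (1.53 to 1.71). Over all islands of VMP1 together the fold was 1.12 (1.1 to 1.15), and the island at MIR21 was the 1 called among them. MIR17HG had a fold of 1.40 (1.29 to 1.51) and MIR22HG 1.37 (1.22 to 1.54), both in 1 island. DLEU2, host of miR-15a and miR-16-1, had 1.29 (1.04 to 1.61) in its highest island and 1.01 over 6 islands, and was not called. MIR122, the liver microRNA gene, had no island. Of 15 hosts of small nucleolar RNAs, 6 were called by the authors' rule and 2, SNHG3 (1.38) and ZFAS1 (1.23), by the binomial test. The island of ZFAS1 also covered ZNFX1, so its value cannot be given to 1 gene. The authors' rule called 35.3% of the islands of the small nucleolar RNA hosts and 19.05% of those of the microRNA hosts, beside 5.10% of all. The binomial test called 11.8% and 14.3%, beside 0.698%.

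Among 31 nuclear RNA-binding and splicing factor genes, 11 were called by the authors' rule and 5 by the binomial test, with 23.1% and 9.62% of the list's islands called, beside 5.10% and 0.698% of all. PTBP1, a splicing repressor, had 2.13 (1.63 to 2.80) in its highest island and 1.38 over all its islands. HNRNPK had 1.68 in its highest island and 1.2 over all. That highest island lay almost wholly beyond the gene's end, so its value cannot be given to the gene. HNRNPH1 stood at 1.30, the paraspeckle protein gene SFPQ at 1.25, and HNRNPA2B1, which shared its island with CBX3, at 1.23. SRSF2, SRSF3, SRSF5, SRSF7, DDX5 and HNRNPU had folds of 1.04 to 1.15 and were not called.

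The m6A genes other than METTL14 stayed close to input. Of 19 placed, RBM15B, which recruits the complex to RNA, was the other one under a called island, with 1.66 in its highest island and 1.30 in sum. The authors' rule called 9.88% of the list's 81 islands and the binomial test 8.64%, beside 5.10% and 0.698% of all. METTL14 held 7 of the 8 islands called by the authors' rule and all 7 past the binomial test. METTL3 had a fold of 0.94, WTAP 1.01, the demethylase genes FTO and ALKBH5 0.99 and 1.14, and the reader genes YTHDF1 and YTHDF2 0.88 and 1.27.

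Elongation control genes had 6 of 22 members under a called island, and BRD2, a bromodomain protein, was the one past the binomial test, at 1.23 (1.15 to 1.32). Of the list's islands, 12.2% were called by the authors' rule and 2.04% by the binomial test, beside 5.10% and 0.698% of all. POLR2A, the largest subunit of RNA polymerase II, had 1.38 (1.18 to 1.61), and CDK9 had 1.07. Of 19 p53 targets, 6 were called, 4 of them by the binomial test: BBC3 (1.45), GDF15 (1.42), BAX (1.38) and TNFRSF10B (1.29) in their highest islands, which encode death-pathway proteins and a stress cytokine. BAX shared its island with FTL, so its value cannot be given to 1 gene. Over all their islands, BAX had 1.31 and TNFRSF10B 1.26. CDKN1A, the canonical target, had 1.21 (1.04 to 1.39) in its highest island and 1.02 over both islands, and was not called. The authors' rule called 18.8% of the islands of this list and the binomial test 12.5%, beside the same 5.10% and 0.698% of all.

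In the heat shock list, 3 of 14 were called by the authors' rule and 0 by the binomial test. The authors' rule called 15% of its 20 islands, beside 5.10% of all, and HSPA8 had 1.26 in sum. Glycolysis had 5 of 14 called, PGK1 and ENO1 (1.56 in its highest island) by the binomial test, and PFKP had 1.97 on 136 and 74 reads. Of its 23 islands, PGK1's included, the authors' rule called 26.1% and the binomial test 8.70%, beside 5.10% and 0.698% of all. Neuron genes, which HepG2 should not transcribe, had 3 of 16 members under a called island over 7473 kb of gene, and 5.56% of their islands were called, near the 5.10% of all. The one past the binomial test, in DLG2, was labelled from general knowledge as a copy of ribosomal RNA, as described below. That label was not checked against sequence.

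**Figure D5:**
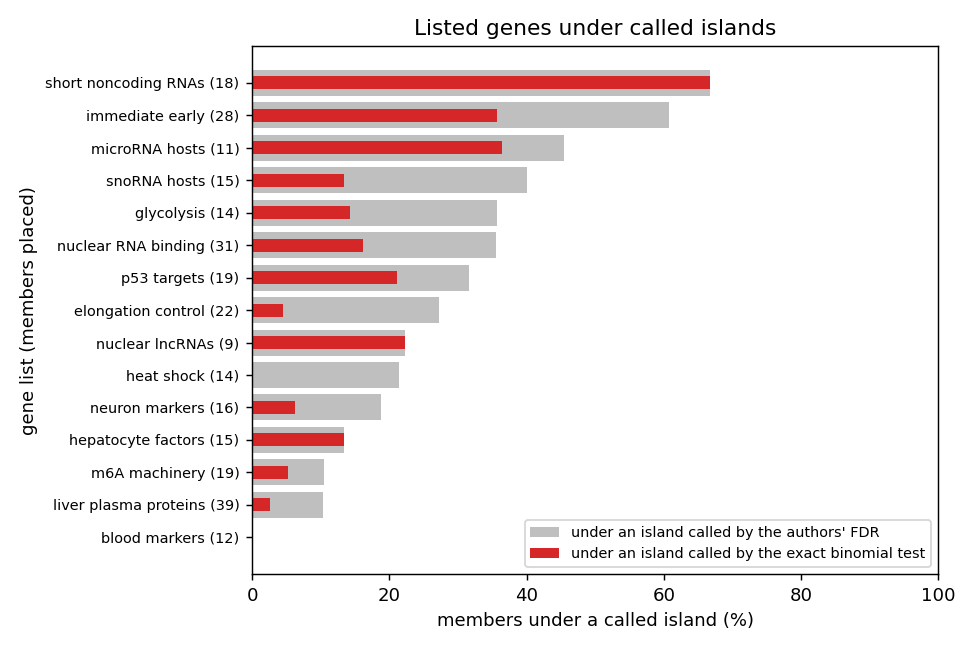
Percent of each list's placed genes under an island called by the authors' FDR (grey) and by the exact binomial test (red), with the number placed in brackets. Short noncoding RNA genes (12 of 18) and immediate early genes (17 of 28) are highest, and liver plasma proteins (4 of 39) and blood markers (0 of 12) lowest.

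Over the 15 placed lists together, 222 of 281 genes lay under an island, 84 under a called one and 47 under one past the binomial test. The authors' rule called 17.5% of the 520 islands over these genes, beside 5.10% of all. The binomial test called 9.81%, beside 0.698%. Without METTL14 and PGK1, the called genes were 82 and 45, and the shares of islands 16.2% and 8.4%. Of the 270 islands past the binomial test, 161 lay over no placed gene, so the genes named here describe the smaller share of them. A gene with no island has no value in the table, so these counts leave out what happened at the remaining 59 genes. Long genes meet more islands than short ones. The 12 short noncoding RNA genes called belong to a list whose written lengths sum to 7 kb. These lengths come from positions rounded to 1 kb, so the sum is not a measured length.

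Where the island lay on the gene differed with the call. For the list genes with a RefSeq strand and an island past the binomial test, 25 in number, the island with most excess covered both the start and the end in 15, the start alone in 2, the end alone in 5 and neither in 3. For the 106 list genes with no called island, it covered both in 20, the start alone in 55, the end alone in 13 and neither in 18. For the 31 list genes called by the authors' rule alone, it covered both in 10 and neither in 7. In these, it covered the start alone in 5 and the end alone in 9. The binomial-called and the not called genes differed in size, with medians of 9 kb and 18 kb. Their islands differed in width, with medians of 8.2 kb and 5.8 kb. Among genes of up to 10 kb in these groups, both ends were covered in 13 of 15 and in 16 of 39. The start alone was covered in 0 and in 18. The islands of these short genes had median widths of 8.6 kb and 6 kb, and the part of width in the counts was not tested. Gene ends were counted as covered within 1 kb, the precision of the written positions, and no test was run on these counts.

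At 13 of the 15 short genes the island covered both gene ends, and at FOSB and BAX it covered the end and not the start. The median overhang for the 15 was 1.6 kb upstream and 2.8 kb downstream. KLF6, a gene of 9 kb, lay in an island of 16.4 kb. SNHG3 had 0.4 kb upstream and 9.8 kb downstream. At HNRNPK, a gene of 13 kb, the island of 6 kb reached the end and not the start, and 5.8 kb of it lay beyond. At BAX, 7 kb of the island of 7.8 kb lay beyond the end. In both, the part over the gene was smaller than the 1 kb precision of the positions.

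Other genes under the islands with most excess reads were named after their values were seen, and 59 such genes were placed. The strongest was DHRS2, a short-chain dehydrogenase, in chr14:24047801-24157200, with 15482 IP and 11146 input reads over 109 kb and a fold of 1.49 (1.45 to 1.53). Its island was much wider than the gene of 16 kb, and the input there was 1.95 times the median density. RHOB, a small GTPase, had 2229 and 854 reads over 11.4 kb and a fold of 2.80 (2.59 to 3.03).

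H1-10, a linker histone gene, had 479 IP and 244 input reads and a fold of 2.11 (1.80 to 2.47). IGFBP1, which encodes a liver-secreted binding protein of insulin-like growth factors, had 1084 and 589 reads and 1.98 (1.78 to 2.19). IRF2BP2 and HES1, both transcriptional repressors, stood at 1.46 and 1.47. Also among the genes so named were ATF4 (1.59), EIF4A1 (1.58) and DDIT3 (1.41). Being chosen on their values, these genes say nothing about how often genes of their kinds were called.

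Upstream sequence was compared as a description. In the 250 bases before the start, 56 of 84 listed genes under a called island matched RefSeq promoters, and had a median GC content of 65.8% and a CpG ratio (observed over expected) of 0.871. The 143 matched genes under no called island had 62% and 0.802, and all 27305 promoters 58% and 0.556. TATAAA on the strand of the gene within the last 50 bases was found in 12.5%, 8.39% and 2.92%. Anywhere in the 250 bases and on either strand (TATAAA or TTTATA), it was found in 14.3%, 12.6% and 11.1%. Members matched in part, since the short noncoding RNA genes and APOB, among others, have no entry.

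Gene clusters and repeats were placed in the same way. In the proximal histone cluster of chromosome 6p22, 5 of 21 islands were called (23.8%, beside 5.10% of all), 3 of them past the binomial test. The fold over the pooled reads was 1.19. The highest island was chr6:26147601-26164400 at 1.63 (1.52 to 1.75), on 1933 and 1271 reads. The distal cluster of 6p22 had 5 islands, 2 of them called (40%) and 0 past the binomial test, with a pooled fold of 1.105. The 1q21 histone cluster had 2 islands at 1.12 and 1.89, and 1 (50%) was called by both rules. The MHC had 133 islands with a median of 1.04 and 5.26% called, near the 5.10% of all islands. The HOXB and HOXC clusters and the 1q44 olfactory receptor cluster had 0 islands.

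A gene-poor stretch of 14q21 had 62 islands covering 88.9% of it, with a median of 1.06. Of these, 7 were called (11.3%, beside 5.10% of all islands) and 0 passed the binomial test. Of the 10 widest called islands of the landscape, 8 lay on chromosome 14, at folds of 1.04 to 1.12 apart from DHRS2, and DHRS2 was the one that passed the binomial test.

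From general knowledge, 15 narrow islands were labelled as copies of ribosomal RNA outside the rDNA arrays, and no sequence was read to check this. The positions were written after the islands were seen, so their calls follow from the choice. Folds ran from 2.01 to 3.22 with a median of 2.73, over 0.2 to 1.4 kb, and the input was 1.67 to 7.17 times the median density. In chr11:85194801-85195400, within DLG2, there were 471 IP and 167 input reads, a fold of 3.03 (2.53 to 3.63). Reads of the rDNA arrays and of these copies cannot be told apart. Of the 69 islands of at most 2 kb past the binomial test, 15 carried this label, 5 lay at METTL14 or PGK1 and 4 at short noncoding RNA genes.

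Islands labelled as nuclear copies of mitochondrial DNA, likewise from general knowledge, went the other way. These 4 islands had folds of 0.63 to 0.73, on input of 11.7 to 172 times the median density. They made up 4 of the 5 islands below input in the binomial test. The island of the mitochondrial genome, left out of all counts, had 844484 IP and 1373176 input reads, a fold of 0.66. Reads of the mitochondrial genome and of its nuclear copies cannot be told apart, so the low folds were not read as a trait of the nuclear loci. The fifth nuclear island below input was chr8:100506001-100509000, at 0.66 (0.58 to 0.75).

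Very high input also marked islands near centromeres. In chr1:121482001-121485600, 69838 IP and 72981 input reads gave a fold of 1.03 (1.02 to 1.04), at 388 times the median input density. It ranks among the 20 called islands with most IP reads above scaled input although its fold is close to 1. In chr6:58772801-58780000 the fold was 1.06 at 97.7 times the median input density, in chr7:61967201-61973400 it was 1.06 at 43.2 times, and in chr10:42373401-42400800 it was 1.04 at 25.2 times, the last not past the binomial test. All of these folds lie under the landscape median of 1.08. Scaled to a median fold of 1 they fall below 1, so their direction depends on the scaling.

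Some of the strongest islands lay over no placed gene or repeat. Placing covered only the positions written here, so these islands may hold genes or repeats that were not written. In chr21:9825401-9839800 there were 5059 IP and 2292 input reads, a fold of 2.37 (2.25 to 2.49), the third most excess reads of the landscape, at 3.04 times the median input density. The island chr10:103124001-103124800 had 520 and 144 reads and a fold of 3.88 (3.22 to 4.69), and chr3:73159801-73160400 had 218 and 76 reads and a fold of 3.08 (2.36 to 4.05). In the proximal histone cluster, chr6:26038601-26069200 had 2773 and 2284 reads and a fold of 1.30 (1.23 to 1.38).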

How the data were processed

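Anti-HA chromatin of untreated HepG2 cells was analysed in 2 IP and 2 input libraries, which the authors pooled. FastQC (0.11.5), Bowtie (1.1.2), SICER and the build hg19 are named in the submitters' processing notes, with SICER's version and settings not given in the sources used here. The deposited values are whole-number counts of IP and of input reads per island, not normalized. The deposited ratio (fold) equals IP over input reads times 1.073, and the deposited p-value equals, where the fold is above 1, a Poisson tail with scaled input as its mean. The deposited FDR, also a q-value, follows from it, and islands under 1e-04 match the deposited list of called islands. The tables of DRB-treated cells were not used.

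Computed here were exact two-sided binomial tests of IP against input reads with the authors' scaling (Benjamini-Hochberg over 38695 islands, adjusted p under 1e-04) and Clopper-Pearson 95% intervals, both covering counting error only. Reads are not independent molecules. The test was tested on simulated data: of 100 islands at 2-fold it called 94, at 4-fold 100 of 100, and 0 of 38495 unchanged ones. These counts do not show how many calls in the data would hold in separate replicates or with another scaling. Positions are 1-based.

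Gene positions (340, rounded to 1 kb), cluster borders and repeat copies in hg19 were written from general knowledge, not read from an annotation; the cluster borders and repeat copies had no check against RefSeq. A gene counts as under an island within 1 kb. The rule for naming took the 15 islands of highest fold with at least 50 input reads, the 20 called islands with most excess reads, the 10 lowest with at least 200 input reads, the 10 widest called, the genes under them, up to 6 called members per list, and METTL14 and PGK1; not each of these is printed, and other list members are given as values. Members and lists were chosen with earlier results of these data known. Software was SciPy 1.17.1, pandas 2.3.3 and numpy 2.4.6 under Python 3.11.15, with figures from matplotlib 3.10.9.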

Additional observations from a re-analysis of the deposited data

How the results depend on the processing

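The authors' calls went from 1973 to 1220 at an FDR under 1e-05 and to 775 with a fold of at least 1.5; they were 1959 when islands of 5 times the median input density or more were left out and 1900 after merging within 5 kb. The binomial test called 270 islands with the authors' scaling, 160 scaled by nuclear island reads, 143 scaled to a median fold of 1, and 2000 at an adjusted p under 0.05. Listed genes under a called island went from 84 to 47 with the binomial test, and were 79 without genes whose written length differs from RefSeq, an alternative chosen after seeing the data. The median fold was 1.02 to 1.08 in the alternatives run. No paired analysis was possible because the replicates are pooled in 1 column, which also leaves out any fit without a replicate. The planned shares of islands over genes and gene starts were not run, since no hg19 annotation was used here. Depth limits narrow islands most: SNORD3A rests on 15 input reads.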
